A study of Mus musculus with 16 samples.

Results

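The comparison described here is between cortical astrocyte cultures and cortical neuron cultures that had both received Klotho. It takes the 4 arrays labelled as astrocytes with 1 nM Klotho and the 4 arrays labelled as neurons with 1 nM Klotho, which makes 8 of the 16 arrays of the study. Arrays were chosen by their labels alone. Both kinds of culture came from the cortex of C57BL/6 mice and were kept for 24 h with recombinant secreted Klotho before RNA was extracted. Astrocytes were grown, per the labels' protocols, from pups of postnatal day 0 to 5, with cells loosened by 15 h of shaking discarded and a stated purity above 98%, although the labels of these samples also carry embryonic day 16. Neurons were taken at embryonic day 16 and used after 14 days in vitro. The remaining 8 arrays hold astrocytes and neurons that received the phosphate-buffered saline vehicle in place of Klotho. Nothing in the labels states that the replicates of a group are independent cultures. A p-value below therefore rests on the spread over 4 arrays, and that spread may be technical.

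Klotho is a membrane protein of the kidney and the choroid plexus whose shed ectodomain circulates in blood and cerebrospinal fluid. It serves as a co-receptor through which fibroblast growth factor 23 reaches fibroblast growth factor receptors, and the secreted form is also known to act on insulin and insulin-like growth factor signalling. Astrocytes and neurons divide the energy metabolism of the cortex between them: astrocytes take up glucose and glutamate, store glycogen and release lactate and cholesterol, whereas neurons rely heavily on mitochondrial respiration.

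RNA was labelled with the dye Cy3 and hybridised to Agilent 1-colour arrays, and a level below is log2 of the processed intensity of a probe minus the 75th percentile of its array. Between 34120 and 39890 of 59305 transcript spots were well above background on the astrocyte arrays, against 34357 to 36751 on the neuron arrays, and 0 spots were saturated. Across genes, arrays correlated at 0.959 to 0.985 among the astrocytes and at 0.982 to 0.996 among the neurons, against 0.740 to 0.809 between them. The median SD over 4 arrays was 0.41 in astrocytes and 0.19 in neurons, over 22767 genes or probes above background on all 8 arrays. Astrocyte replicate 3 was low for inflammatory genes, and neuron replicate 1 stood apart from the other neuron arrays for many gene groups, as given below with each group. The astrocyte arrays lay on a slide of their own and were scanned on another day than the neuron arrays, so that cell type, slide and scan day cannot be told apart. The authors' deposited value table assigns the data of Klotho astrocyte replicates 1 and 3 to vehicle cultures. It gives Klotho astrocyte replicates 2 and 4 the same treatment as the scanner files. It also assigns the data of vehicle astrocyte replicates 2 and 4 to Klotho cultures. Cell type was the same in both sources for all 16 arrays, so this conflict touches the treatment and not the cell type.

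Astrocytes and neurons differed across most of the measured transcriptome. Genes were represented by their brightest probe, and limma tests were run on the 27799 genes or unnamed probes for which either group, or both, had all 4 arrays well above background. Of these, 7631 (27.5%) were higher and 9868 (35.5%) were lower in astrocytes at a Benjamini-Hochberg adjusted p below 0.05, together 62.9%. This is what "called" means below. A gene dim in 1 group enters the test only through the other group, so its direction is largely set by this filter. With a test for a difference of more than 2-fold, 3841 (13.8%) were higher and 3665 (13.2%) were lower, together 27%. The median log2 difference over everything tested was -0.18. Of 266 list genes with more than 1 measured probe, 50 had another probe whose difference lay more than 2 log2 units from the one given. Among the genes named below these are Cplx2, Csf1r, Elavl4, Fgf13, Grm5, Ifih1, Igf1, Itgam, Lhx6, Pcsk2, Pvalb, Slc12a5, Slc32a1 and Tbr1. The 4 values of each group did not overlap for 58.7% of the 27779 with complete values.

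Among named genes above background on all 8 arrays, the largest rise was that of Ltbp2, an extracellular matrix protein related to the latent TGF-beta binding proteins. Its level was 6.00, 5.75, 5.63 and 6.37 on the astrocyte arrays, against -4.58, -4.26, -4.10 and -4.06 on the neuron arrays. This is a log2 difference of 10.19 ± 0.22 (SE, n = 4 each; limma adjusted p = 5.02e-09). Its company among the 10 largest rises was mixed. It held Acta2, the smooth muscle actin (9.21), Cyp1b1, a cytochrome P450 (9.36), the membrane protein Tm4sf1 (8.67) and the giant scaffold protein Ahnak (8.46). It also held the inflammatory genes Ifit3 (9.53), C3 (9.39), Cxcl10 (9.39), Tnfaip2 (8.81) and Uba7, the enzyme that activates ISG15 (8.49), all given as log2 differences.

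The largest falls among such genes were mostly of neuronal genes. Tmem130 had levels of -3.31, -2.95, -4.17 and -3.55 in astrocytes, against 6.47, 5.87, 5.97 and 5.81 in neurons, and fell by 9.52 ± 0.28 on the log2 scale (SE, n = 4 each; limma adjusted p = 8.17e-09). It was followed by Vstm2l (log2 difference -9.43), the vesicular GABA transporter Slc32a1 (-9.28), Caly (-9.25) and the adhesion protein Tenm2 (-8.82). Dync1i1, a dynein chain (-8.79), the kinase Mast1 (-8.78), the pseudokinase Camkv (-8.72) and Gucy1a1, a subunit of soluble guanylate cyclase (-8.72), were also among them.

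For genes that were not well above background on any array of a group, only a bound could be given. It sets the mean of the brighter group against, for each dim array, the higher of the dimmest signal well above background and the probe's own signal. Such bounds existed for 626 genes higher and 365 genes lower in astrocytes. Sst, the interneuron peptide somatostatin, had the largest. Its levels were -7.18, -7.71, -7.24 and -7.83 in astrocytes, with 0 of 4 arrays above background, and 6.07, 5.85, 5.91 and 5.78 in neurons. It was at least 3387-fold lower in astrocytes (limma adjusted p = 1.29e-09). Ptpn5, a tyrosine phosphatase of forebrain neurons, was at least 1446-fold lower (limma adjusted p = 9.99e-09). Cpne6 and Cpne4, copines of the calcium-binding kind, were at least 819-fold and at least 712-fold lower, with limma adjusted p = 2.21e-08 and 5.02e-09. In the other direction Rsad2, an antiviral enzyme, was at least 1331-fold higher (limma adjusted p = 6.3e-06), and Ccn5, a matricellular protein, was at least 1169-fold higher (limma adjusted p = 7.63e-09).

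**Figure D1:**
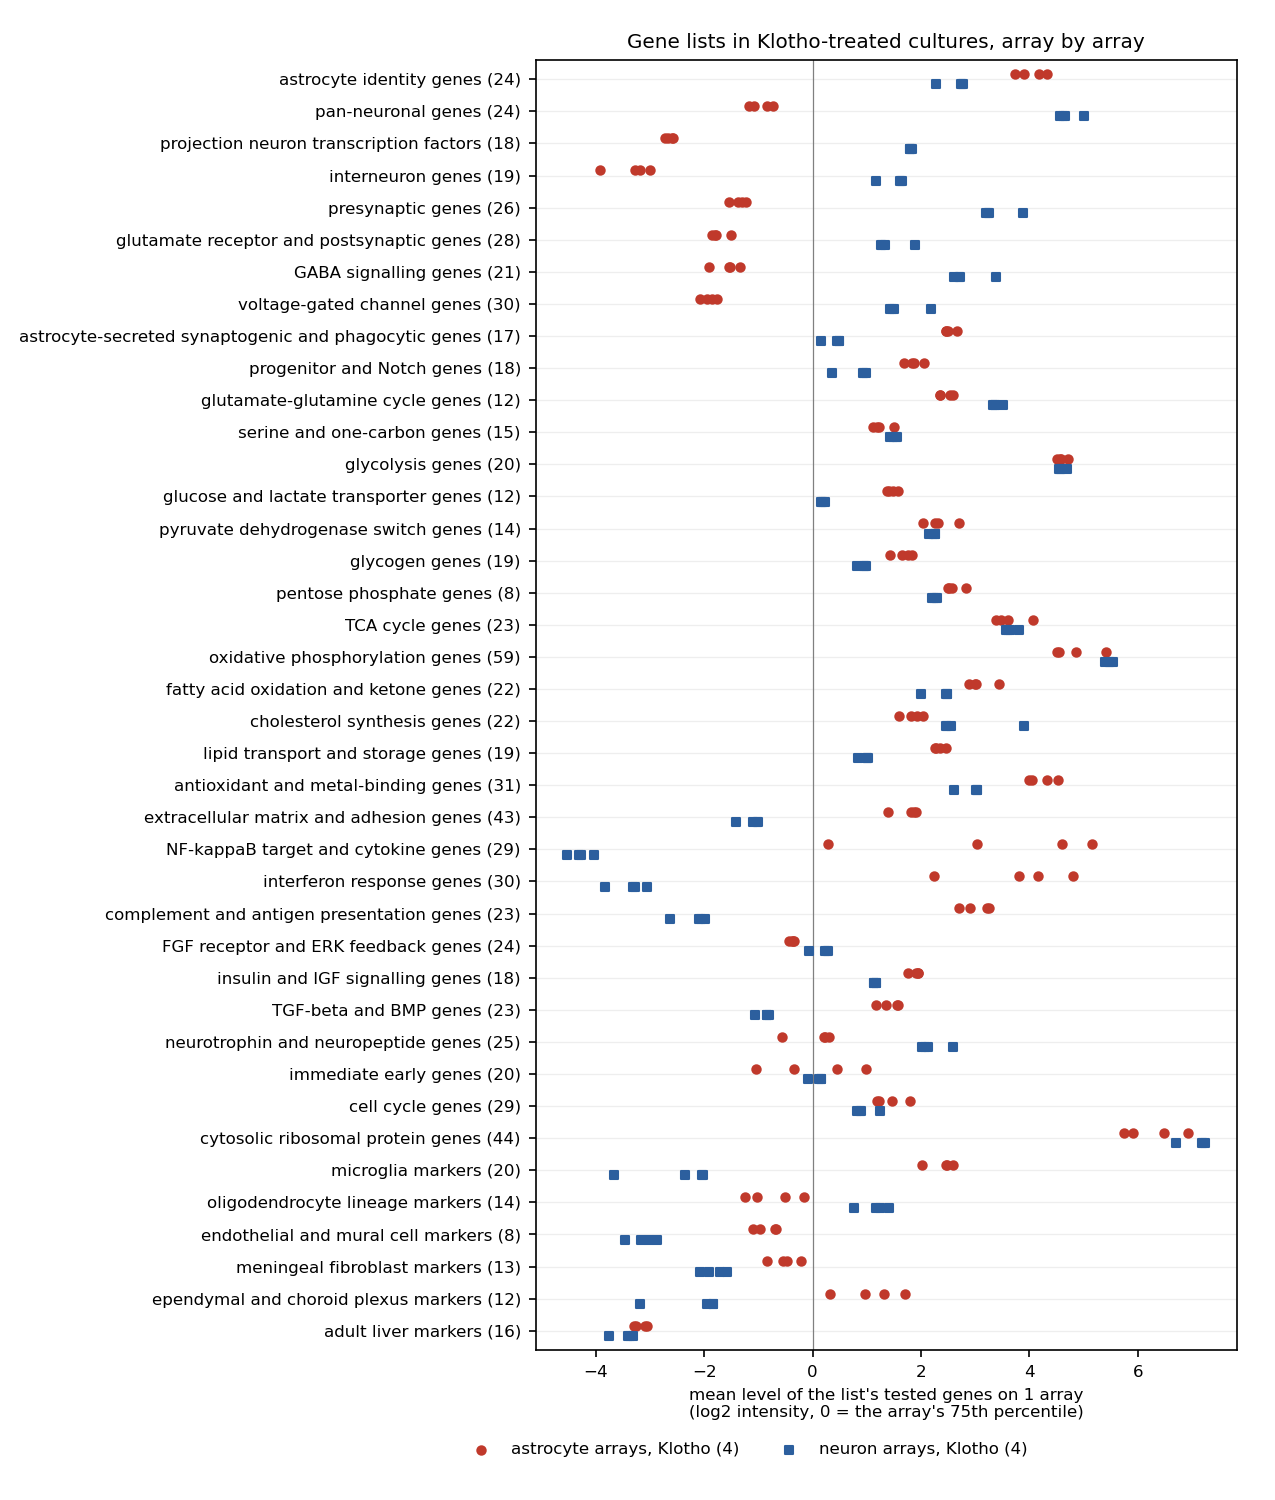
Mean level of each gene group on each of the 8 Klotho arrays, in log2 units relative to the 75th percentile of the array, with astrocyte arrays drawn before neuron arrays and 1 point per array. NF-kappaB targets lie at 0.29 to 5.15 in astrocytes and at -4.53 to -4.03 in neurons, whereas pan-neuronal genes lie at -1.17 to -0.74 in astrocytes and at 4.57 to 5.02 in neurons.

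The markers bore out both labels. Of 24 astrocyte identity genes, 15 were called higher and 4 lower, with a median log2 difference of 1.22, and of 24 pan-neuronal genes 0 were called higher and 23 lower, with a median of -5.43. Gfap, the intermediate filament of astrocytes, was at 6.67, 6.45, 6.04 and 5.85 in astrocytes, against -1.39, 1.07, 0.85 and 1.12 in neurons. The groups did not overlap, although neuron replicate 1 lay far below the other neuron arrays, and the difference was 5.84 ± 0.52 (SE, n = 4 each; limma adjusted p = 7.42e-06). The water channel Aqp4 was higher by 4.23, the potassium channel Kcnj10 by 3.79 and the calcium-binding protein S100b by 2.97 on the log2 scale. Neuron arrays nevertheless held astrocyte transcripts: only Gjb6, a gap junction connexin, was above background on 0 of 4 neuron arrays, and the list averaged 2.27 to 2.77 per neuron array, against 3.74 to 4.32 per astrocyte array. In such bulk samples fewer cells of a type and less RNA per cell cannot be told apart.

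Not all genes taken as astrocyte markers followed the others. Fabp7, a fatty acid-binding protein of radial glia and young astrocytes, was at 6.19, 6.01, 4.91 and 5.17 in astrocytes, against 6.98, 7.18, 7.22 and 7.20 in neurons, and fell by 1.57 ± 0.29 on the log2 scale (SE, n = 4 each; limma adjusted p = 0.00105). Slc1a2, the main glutamate transporter of mature astrocytes, was at 0.24 to 0.57 in astrocytes, against 0.52 to 0.70 in neurons, and Aldoc, Atp1b2, Cst3 and Ntsr2 did not pass the test either.

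Neuronal genes were low in astrocytes, and several were not detected there. Nefl, the light neurofilament, was at -7.37 to -7.85 in astrocytes with 0 of 4 arrays above background, against 2.92 to 3.83 in neurons, and was at least 537-fold lower (limma adjusted p = 5.02e-09). The splicing factor Rbfox3, known as NeuN, was 395-fold lower, with levels between -4.52 and -3.57 in astrocytes and between 4.31 and 4.93 in neurons, and Tubb3, neuronal tubulin, was 144-fold lower. Mapt, which encodes tau, still had levels of 2.38 to 2.74 in astrocytes, against 7.58 to 7.65 in neurons. Vgf, a secreted granin-like protein, did not pass the test, with a log2 difference of -1.46 (limma adjusted p = 0.0971).

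Genes that specify cortical neuron subtypes were mostly lower in astrocytes as well. Of 18 transcription factors of projection neurons, 16 were called lower and 0 higher, with a median of -4.22 (-2.61 with normexp background correction). Tbr1, a factor of deep-layer neurons, was at -7.25, -6.32, -6.96 and -5.38 in astrocytes, where 1 of 4 arrays was above background, and at 3.77, 3.49, 3.57 and 3.58 in neurons. Of 19 interneuron genes tested, 16 were called lower and 2 higher. Among genes above background on all 8 arrays, 10 projection neuron factors and 9 interneuron genes were called lower. Genes dim in astrocytes entered the test through the neuron arrays, so their direction was largely set by the filter. The GABA-synthesising enzymes Gad1 and Gad2 fell by 6.73 and 7.25 on the log2 scale, and the interneuron peptide Vip was at least 46.2-fold lower (limma adjusted p = 2.42e-07). The 2 that rose were Pvalb (1.45), a calcium buffer, and Maf (0.67), a transcription factor that is not limited to neurons. Lhx6, an interneuron factor, gave -0.25 by its brightest probe but -8.72 by another, so its call depended on the probe.

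The same held along the synapse. Of 26 presynaptic genes 23 were called lower and 0 higher, with a median of -4.64. Cplx1, a complexin of the release machinery, was at -5.02, -5.71, -6.06 and -5.66 in astrocytes, where 1 of 4 arrays was above background, against 4.95, 4.32, 4.20 and 4.21 in neurons, a log2 difference of -10.03 ± 0.27 (SE, n = 4 each; limma adjusted p = 6.49e-09). The vesicle protein Syn1 fell by 6.23 and the calcium sensor Syt1 by 8.01. Snap25 and Cplx2 were among the 3 members that did not pass the test. Snap25, a SNARE protein of neurons, has 1 probe on the array, and its levels were 4.34, 5.23, 5.57 and 5.38 in astrocytes and 5.35, 5.27, 5.25 and 5.19 in neurons, so the groups overlapped. Cplx2 gave -0.17 by its brightest probe and -3.27 by another.

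Of 28 genes for glutamate receptors and postsynaptic proteins, 22 were called lower and 1 higher. Grm5, a metabotropic glutamate receptor, fell by 7.21 ± 0.22 on the log2 scale (SE, n = 4 each; limma adjusted p = 9.68e-09), and Nrgn, a calmodulin-binding protein of dendritic spines, fell by 8.16, with 3 of 4 astrocyte arrays above background. The 1 that rose was Gria3, an AMPA receptor subunit (1.24). Of 21 genes of GABA signalling, 18 were called lower and 2 higher: the receptor subunit Gabrb1 rose by 1.07 and Slc12a2, the sodium-potassium-chloride cotransporter, by 1.03. Of 30 voltage-gated channel genes, 23 were called lower and 1 higher, with a median of -3.36. Among channel genes above background on all 8 arrays, 14 were called lower. Neuron replicate 1 was the highest neuron array for all of these synaptic and channel groups. For presynaptic genes it averaged 3.89, against 3.21 to 3.25 for the other neuron arrays and -1.54 to -1.23 for the astrocyte arrays, and without it the same number of presynaptic genes, 23, was called lower.

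**Figure D2:**
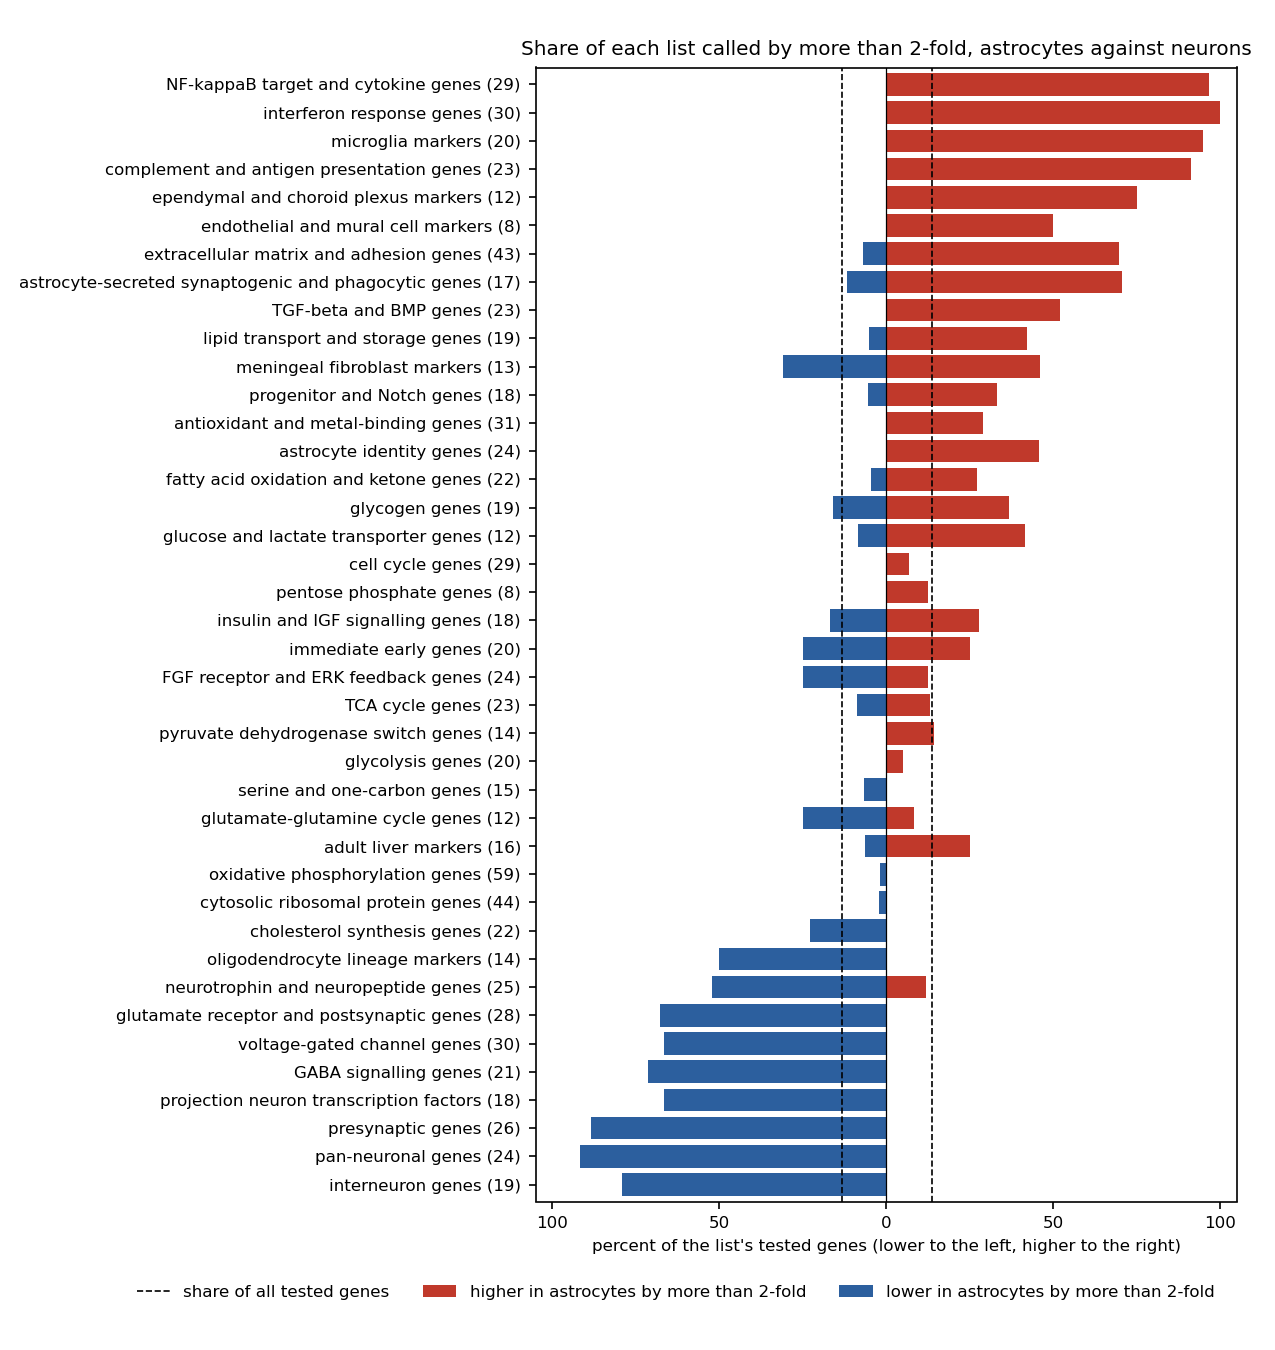
For each gene group, the percentage of tested genes called higher (right) and lower (left) in astrocytes by more than 2-fold at a limma adjusted p below 0.05, with dashed lines at the same percentages over everything tested, 13.8% and 13.2%. All 30 interferon genes and 28 of 29 NF-kappaB genes reach the right side, and 22 of 24 pan-neuronal genes the left.

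Of the molecules through which Klotho is known to act, the fibroblast growth factor receptors were higher in astrocytes. Fgfr1 had levels of 6.58, 6.23, 6.60 and 6.30 in astrocytes, against 3.99, 4.72, 4.76 and 4.74 in neurons, a log2 difference of 1.87 ± 0.22 (SE, n = 4 each; limma adjusted p = 5.55e-05). Fgfr2 rose by 1.35 (limma adjusted p = 0.000107) and Fgfr3 by 1.25 (limma adjusted p = 0.00188), and for both the astrocyte arrays lay above all neuron arrays. Fgfr4 was near background, at -3.65 ± 0.22 in astrocytes and -3.96 ± 0.39 in neurons (SD, n = 4 each), and did not pass the test (limma adjusted p = 0.267). Kl, which encodes Klotho itself, and its relative Klb were not well above background on any of the 8 arrays.

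Among 24 tested genes of fibroblast growth factor signalling and ERK feedback, 6 were called higher and 9 lower, shares near those over all genes. The intracellular growth factor relative Fgf13 was at -3.49, -4.14, -4.05 and -4.72 in astrocytes and at 0.94, 0.94, 0.85 and 1.02 in neurons, and fell by 5.04 ± 0.25 on the log2 scale (SE, n = 4 each; limma adjusted p = 1.49e-07). Fgf10 was at least 11.7-fold lower (limma adjusted p = 8.61e-08) and Fgf9 fell by 2.48. The transcription factor Etv1, an ERK target in several cell types, fell by 3.32, whereas the ERK phosphatase Dusp5 was at least 4.38-fold higher (limma adjusted p = 3.04e-07). The feedback inhibitors Spry1, Spry4 and Spred1 did not pass the test.

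Of 18 tested genes of insulin and insulin-like growth factor signalling, 8 were called higher and 5 lower, beside 27.5% and 35.5% over everything tested. The growth factor Igf1 was at 1.97, 2.05, 1.67 and 1.85 in astrocytes, against -1.20, -1.95, -1.66 and -1.65 in neurons, a log2 difference of 3.50 ± 0.20 (SE, n = 4 each; limma adjusted p = 3.86e-07). The array holds 4 measured Igf1 probes, and the others gave 3.68, 0.02 and -0.96, so the rise was seen with only some of them. The binding proteins Igfbp2 (3.58), Igfbp5 (3.17) and Igfbp3 (2.80) rose as well, while Igfbp4 fell by 1.59. The receptors Insr and Igf1r gave log2 differences of 0.08 and 0.23 and did not pass the test.

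Glycolysis did not separate the cultures as a block. Of 20 glycolysis genes, 4 were called higher and 8 lower, shares near those over everything tested (27.5% and 35.5%). The median log2 difference was -0.37, and 1 of these genes passed the test for more than 2-fold. That gene was Hk2, the inducible hexokinase, with levels of 0.06, 1.76, 0.39 and 2.16 in astrocytes, against -3.45, -2.70, -2.92 and -2.66 in neurons, a log2 difference of 4.02 ± 0.45 (SE, n = 4 each; limma adjusted p = 3.92e-05). Pfkfb3, which makes the activator of phosphofructokinase, rose by 1.32. The most abundant enzymes lay close together: Gapdh averaged 7.74 ± 0.46 in astrocytes and 8.21 ± 0.07 in neurons, and Eno1 averaged 6.50 ± 0.27 in astrocytes and 6.61 ± 0.13 in neurons (SD, n = 4 each), and neither passed the test. The count of lower calls was 4 without astrocyte replicate 4 or without neuron replicate 1, 3 or 4, and 5 without neuron replicate 2.

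Transporters that carry glucose and lactate differed in both directions. Of 12 tested transporters for glucose and monocarboxylates, 6 were called higher and 2 lower, beside 27.5% and 35.5% over everything tested. Slc2a1, the glucose transporter of glia and endothelium, was at 6.00, 4.85, 6.44 and 5.51 in astrocytes and at 2.02, 2.10, 2.22 and 2.06 in neurons, a log2 difference of 3.60 ± 0.31 (SE, n = 4 each; limma adjusted p = 5.53e-06). Slc2a3, the neuronal glucose transporter, went the other way and fell by 2.62 ± 0.24 (SE, n = 4 each; limma adjusted p = 9.13e-06), with levels of 0.75 to 1.24 in astrocytes and 3.42 to 4.34 in neurons. The lactate exporter Slc16a3 rose by 2.99 and Slc2a4, the insulin-responsive glucose transporter, by 3.60. Slc16a1, a monocarboxylate transporter, and its chaperone Bsg did not pass the test.

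Other genes of carbohydrate metabolism also moved both ways, beside 27.5% called higher and 35.5% called lower over everything tested. Pcx, pyruvate carboxylase, an enzyme known from astrocytes, was at 5.15, 4.82, 5.47 and 5.46 in astrocytes, against 3.24, 3.25, 3.22 and 3.21 in neurons, a log2 difference of 2.00 ± 0.19 (SE, n = 4 each; limma adjusted p = 1.27e-05). The pyruvate dehydrogenase kinase Pdk4 rose by 2.64 and the complex subunit Dlat fell by 1.36. Of 19 glycogen genes 11 were called higher and 4 lower. The branching enzyme Gbe1 rose by 2.72 ± 0.17 (SE, n = 4 each; limma adjusted p = 5.27e-07), and the phosphorylase kinase subunits Phka1 and Phkg1 rose by 1.83 and 3.73, whereas Epm2a, the glycogen phosphatase laforin, was at least 3.86-fold lower (limma adjusted p = 1.24e-06). Of 23 genes of the TCA cycle 6 were called higher and 7 lower, shares near those over everything tested, with 12 lower without astrocyte replicate 1. Idh2, the mitochondrial NADP-dependent isocitrate dehydrogenase, was higher by 2.71 and its cytosolic relative Idh1 lower by 1.86. Of 8 pentose phosphate genes, 4 were called higher (2 without neuron replicate 2) and 1 lower, with H6pd, the endoplasmic reticulum member, the largest (1.52). Among 15 genes of serine and one-carbon metabolism 2 were called higher and 4 lower, both below the shares over everything tested, with 7 lower without astrocyte replicate 1. Phgdh, Psat1 and Psph, the enzymes of serine synthesis, did not pass the test.

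Genes of oxidative phosphorylation were lower in astrocytes by small amounts. Of 59 subunits 33 were called lower and 0 higher, beside 35.5% lower and 27.5% higher over everything tested. The median log2 difference was -0.62, and 1 subunit passed the test for more than 2-fold. That gene was Ndufa5, a complex I subunit, at 4.81, 4.20, 3.89 and 3.80 in astrocytes, against 5.92, 5.91, 5.97 and 5.93 in neurons. Atp5d of the ATP synthase fell by 1.33 and Cox6b1 of complex IV by 1.43. The count of lower calls depended on the arrays and the scaling: it was 53 without astrocyte replicate 1, 21, 16 and 15 without astrocyte replicate 2, 3 or 4, and 20, 17 and 18 without neuron replicate 2, 3 or 4. It was 16 with arrays centred on their median. Counts of 21 or fewer are near or below the share called lower over everything tested with all arrays. Genes for cytosolic ribosomal proteins behaved in the same manner, with 28 of 44 called lower, 0 higher and a median of -0.79. Lower calls numbered 18 and 17 without astrocyte replicate 3 or 4, and 18, 17 and 16 without neuron replicate 2, 3 or 4. Such counts lie near the same share. Among the ribosomal genes Rps2 gave the largest fall, 1.86 ± 0.30 on the log2 scale (SE, n = 4 each; limma adjusted p = 0.000474). Its levels were 6.44, 5.78, 5.04 and 5.09 in astrocytes and 7.31 to 7.53 in neurons.

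Related enzymes, transporters and structural proteins with a form known mainly from neurons and another form were set side by side in 30 pairs. In 10 pairs the neuronal form was called lower and the other form higher in astrocytes. These included Slc2a3 and Slc2a1, Slc1a1 (-5.79) and the glial glutamate transporter Slc1a3 (1.83), Tubb3 and Tubb6 (5.20), the splicing repressors Ptbp2 (-1.58) and Ptbp1 (1.98), and the chloride cotransporters Slc12a5 (-5.38) and Slc12a2. In 8 pairs both forms were lower, among them the splicing factors Rbfox3 and Rbfox2 (-2.64). Glul, glutamine synthetase, belongs to these pairs as well (-0.72), and its call was lost without astrocyte replicate 3 or 4 or without neuron replicate 2, 3 or 4. In 2 pairs the order was turned: Ldhb, the lactate dehydrogenase subunit known from neurons, rose by 1.29 while Ldha fell by 0.76, and the glycogen phosphorylase Pygb rose by 0.91 while Pygm fell by 1.95. Cpt1c and Cpt1a were both higher, and in the remaining 9 pairs at least 1 form was not called. Without single arrays the number of pairs of the first kind lay between 8 and 11.

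The lactate dehydrogenase pair shows how small and how regular these differences were. Ldhb was at 7.61, 7.05, 6.92 and 6.83 in astrocytes, against 5.63, 5.83, 5.97 and 5.84 in neurons (limma adjusted p = 0.000486). Ldha was at 6.50, 6.33, 5.66 and 6.00 in astrocytes, against 7.00, 6.81, 6.84 and 6.91 in neurons (limma adjusted p = 0.0104). Neither pair of groups overlapped. Slc6a11, a GABA transporter known from astrocytes, fell by 6.57 ± 0.36 on the log2 scale (SE, n = 4 each; limma adjusted p = 2.55e-07), with levels of -4.78 to -3.12 in astrocytes and 2.02 to 2.57 in neurons. Elavl1 (1.37), the ubiquitous partner of Elavl4 (-5.43), was called higher by its brightest probe, whereas the mean over its probes gave -0.38 and did not pass the test (limma adjusted p = 0.0961).

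**Figure D3:**
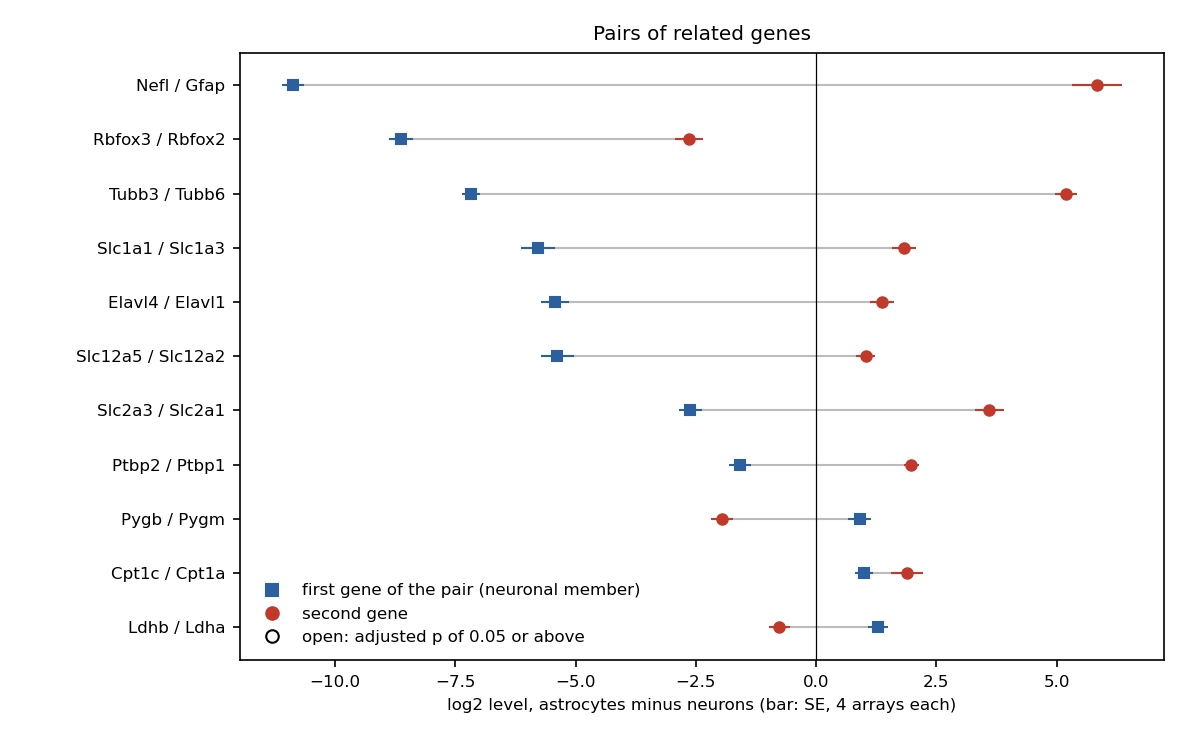
Log2 difference in level, astrocytes minus neurons, for both members of 11 of the 30 gene pairs, those whose members are both named in the text, with bars of 1 SE (n = 4 arrays per group); the form known mainly from neurons and the other form have separate symbols. Slc2a3 lies at -2.62 and Slc2a1 at 3.60, whereas for Ldhb at 1.29 and Ldha at -0.76 the order is turned.

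Lipid metabolism divided by function. Of 22 cholesterol synthesis genes 14 were called lower and 0 higher in astrocytes, with a median of -1.37. Hmgcs1, an early enzyme of the pathway, was at 5.37, 5.00, 5.09 and 4.47 in astrocytes, against 7.50, 6.68, 6.76 and 6.75 in neurons, a fall by 1.94 ± 0.26 on the log2 scale (SE, n = 4 each; limma adjusted p = 0.000126), and Mvd and Dhcr7, later enzymes, fell by 2.55 and 2.45. Neuron replicate 1 averaged 3.90 for this list, against 2.46 to 2.56 on the other neuron arrays and 1.60 to 2.04 on the astrocyte arrays. Without it, 14 were called lower and 4 higher, and the median was -1.02. Without astrocyte replicate 1, 2 were called higher. The regulator Srebf2 was at 1.53 on neuron replicate 1, against 0.26 to 0.48 on the other neuron arrays, and did not pass the test with all arrays.

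Genes of fatty acid oxidation were higher, with 12 of 22 called higher and 2 lower. The mitochondrial carnitine enzyme Cpt2 rose by 2.87 ± 0.26 (SE, n = 4 each; limma adjusted p = 8.82e-06), and Acadvl and Hadhb of the oxidation cycle rose by 1.58 and 1.49, whereas the ketone enzymes Acat1 and Oxct1 fell by 2.88 and 1.10 on the log2 scale. Of 19 genes of lipid transport and storage 11 were called higher and 3 lower. The sterol-sensing receptor Nr1h3 was at 1.35, 1.30, 1.76 and 1.55 in astrocytes, against -3.57, -2.68, -2.65 and -2.45 in neurons, and rose by 4.33 ± 0.26 (SE, n = 4 each; limma adjusted p = 4.94e-07). Its target Abca1, a cholesterol exporter, rose by 3.46 and the lipid droplet coats Plin2 and Plin3 by 3.78 and 5.17, while Fabp5, a fatty acid-binding protein, fell by 2.96. Apoe, the main apolipoprotein of brain, averaged 8.64 in astrocytes and 8.04 in neurons and did not pass the test.

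Antioxidant genes were higher as a group, 21 of 31 called higher and 2 lower, with a median of 1.23. Sod3, the extracellular superoxide dismutase, was at 4.01, 3.75, 3.42 and 3.58 in astrocytes, against -2.11, -2.32, -2.53 and -2.39 in neurons, a log2 difference of 6.03 ± 0.19 (SE, n = 4 each; limma adjusted p = 1.2e-08). Nfe2l2, the transcription factor NRF2, rose by 3.92, and Nqo1 and Gclc, which it is known to induce, by 3.22 and 2.05. Prdx6, a peroxiredoxin of astrocytes, rose by 2.91. The glutathione transferases Gstm5 and Gstp1 fell by 0.90 and 0.84, and the enzymes Sod1, Sod2 and Cat did not pass the test.

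The extracellular matrix gave a broad difference. Of 43 matrix and adhesion genes 34 were called higher and 4 lower, with a median of 2.71, and 30 of them were higher by more than 2-fold. Col8a1, a short-chain collagen, was at 2.64, 1.98, 2.34 and 1.88 in astrocytes and above background on 0 of 4 neuron arrays, at least 212-fold higher (limma adjusted p = 5.03e-09). Col18a1, a basement membrane collagen, rose by 6.01 and its neighbour in that membrane Nid2 by 5.66. Col6a3 and Dcn fell by 3.13 and 2.54 on the log2 scale. Astrocyte replicate 3 was the lowest astrocyte array for this list, at 1.39 against 1.82 to 1.91 for the other astrocyte arrays and -1.42 to -1.02 for the neuron arrays, and without it 34 were called higher.

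Of 23 tested genes of TGF-beta and BMP signalling 15 were called higher and 2 lower. Ccn2, a classical TGF-beta target, was at 7.68, 6.05, 7.52 and 7.26 in astrocytes, against 0.82, 0.70, 0.75 and 0.54 in neurons, a log2 difference of 6.42 ± 0.33 (SE, n = 4 each; limma adjusted p = 1.89e-07). The receptor Tgfbr2 rose by 5.15, the target Tgfbi by 5.49, and the ligand Tgfb1, which was above background on 1 of 4 neuron arrays, by 4.00. The BMP antagonist Nog fell by 0.89. All 17 tested genes for synapse-forming and phagocytic factors of astrocytes were called, 13 higher and 4 lower. The thrombospondin Thbs1 rose by 6.39 ± 0.19 (SE, n = 4 each; limma adjusted p = 8.17e-09), with levels of 5.46 to 6.00 in astrocytes and -0.74 to -0.42 in neurons, the AMPA receptor regulator Chrdl1 rose by 5.32 and the glypican Gpc4 by 3.86. The proteoglycans Ncan and Vcan fell by 2.19 and 2.66.

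Progenitor genes split in the same way. Of 18 progenitor and Notch genes 11 were called higher and 2 lower: the intermediate filaments Vim and Nes rose by 3.02 and 3.06 and the inhibitor of differentiation Id3 by 4.63. Hes5, a direct Notch target of neural progenitors, was at -2.98, -3.12, -3.37 and -4.76 in astrocytes, against 4.03, 3.74, 3.85 and 4.07 in neurons, and fell by 7.48 ± 0.36 on the log2 scale (SE, n = 4 each; limma adjusted p = 1.28e-07). The related Hes1 did not pass the test. The Notch ligand Dll1 fell by 1.07, and its call was lost without any 1 of astrocyte replicates 1 and 3 and the 4 neuron arrays.

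The largest differences of any group were those of inflammation. All 29 tested genes of the NF-kappaB target and cytokine list were called higher in astrocytes, 28 of them by more than 2-fold. The 4 values of each group were apart for 28 (96.6%), against 58.7% over everything tested with complete values. The median log2 difference was 8.16, or 6.47 with 12 genes that were dim in all neuron arrays set at their bound, and 5.17 with normexp background correction. In the interferon response list all 30 tested genes were called higher, also by more than 2-fold, with a median of 7.65, or 7.38 with 6 genes at their bound. Above background on all 8 arrays were 12 of the NF-kappaB and 18 of the interferon genes, and all of these were called higher. The others entered the test through the astrocyte arrays alone, so their direction was largely set by the filter. Both lists were also drawn up with earlier results of these arrays known, so their direction is a description. NF-kappaB is a transcription factor activated by cytokine and pathogen receptors, and interferon acts through a different factor complex that binds the interferon-stimulated response element.

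The chemokine Ccl2 was at 7.79, 8.89, 3.46 and 8.31 in astrocytes, against -5.26, -4.86, -4.57 and -4.31 in neurons, where 3 of 4 arrays were above background. Its log2 difference was 11.87 ± 1.00 (SE, n = 4 each; limma adjusted p = 5.03e-06). Ccl5, another chemokine, was at 7.07, 7.99, 3.43 and 7.76 in astrocytes, against -5.00, -5.95, -5.45 and -5.55 in neurons, with 1 of 4 neuron arrays above background. In both, astrocyte replicate 3 was the lowest astrocyte array by more than 3 log2 units and still lay far above the neurons. The cytokine Il6 was at 2.75, 5.40, -2.17 and 5.60 in astrocytes and above background on 0 of 4 neuron arrays, at least 340.3-fold higher (limma adjusted p = 0.000198). Cxcl1 and Cxcl2, chemokines for neutrophils, were at 4.82, 7.13, 0.10 and 7.03 and at 0.59, 3.75, -3.95 and 3.42 in astrocytes. They were at least 1249-fold and at least 88.7-fold higher, with limma adjusted p = 6.95e-05 and 0.00064. Csf1, the growth factor of microglia, varied less, at 6.34, 7.82, 5.91 and 6.85 in astrocytes, against -0.36, 0.56, 0.53 and 0.50 in neurons.

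The astrocyte arrays differed widely from each other here. Averaged over the list, NF-kappaB genes were at 3.04, 5.15, 0.29 and 4.60 on the astrocyte arrays, against -4.53, -4.31, -4.03 and -4.28 on the neuron arrays, with replicate 3 the lowest astrocyte array. Of the 10 genes with the largest SD over the astrocyte arrays, 8 are cytokines or enzymes of inflammation: Il6, Csf2, Cxcl2, Ptgs2, Cxcl1, Il1b, Ifnb1 and Ccl7. The others were Has2, a hyaluronan synthase, at 0.66, 3.40, -3.91 and 3.20 in astrocytes, and Smtnl2, a smoothelin-like protein, at -2.16, 5.36, -3.20 and -2.50, which was high on astrocyte replicate 2 alone and did not pass the test. Without that array Smtnl2 was called lower, with a log2 difference of -3.13. Without replicate 3 the number of NF-kappaB genes called higher was 30 of those then tested, and the median difference was 9.18. With only the astrocyte replicates whose treatment both sources give alike, an alternative chosen after seeing the data, 31 were called higher and the median was 9.90.

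Interferon genes varied in the same order over the arrays but by less, at 3.81, 4.81, 2.25 and 4.15 in astrocytes and between -3.83 and -3.06 in neurons. Ifit1, an antiviral protein, was at 4.53, 5.63, 2.70 and 4.92 in astrocytes and above background on 0 of 4 neuron arrays, at least 998-fold higher (limma adjusted p = 1.59e-07). Ifit3 rose by 9.53, the RNA sensors Ddx58 and Ifih1 by 6.82 and 8.26 (Ifih1 was above background on 2 of 4 neuron arrays), and Bst2, a membrane protein that tethers virions, by 7.77. The antiviral synthetase Oas1a was at least 565-fold higher (limma adjusted p = 4.84e-07). Ifit3 was above background on all 8 arrays, with levels of 6.59, 6.98, 4.77 and 6.23 in astrocytes and -4.51, -3.02, -2.98 and -3.04 in neurons.

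The 250 bases before the transcription start in the RefSeq promoters of GRCm38.p6 were searched on both strands, and genes were matched by symbol. The letters GGGA, any base and TTTCC, of an NF-kappaB site, were found in 6 of 21 promoters of the NF-kappaB list (28.6%) and in 112 of 27025 promoters overall (0.414%). The letters GAAA, any 2 bases and GAAA, of the interferon-stimulated response element, were found in 10 of 26 promoters of the interferon list (38.5%) and in 936 of 27025 overall (3.46%). The palindrome TGACGTCA of the cyclic AMP response element was found in 4 of 19 promoters of the neurotrophin and neuropeptide list (21.1%) and in 478 of 27025 overall (1.77%). Other lists held the letters too. The interferon element was in 4 of 19 promoters of the neurotrophin and neuropeptide list (21.1%), 6 of 34 of the ribosomal list (17.6%) and 3 of 17 of the immediate early list (17.6%). The next shares after those given were 1 of 10 meningeal promoters (10%) for the NF-kappaB site and 2 of 17 immediate early promoters (11.8%) for the cyclic AMP response element. These lists hold textbook targets of the same factors, and a match is a description and not a site shown to be bound. The last 150 bases before the start of 4 genes with large differences are given, 5′ to 3′ on the strand of the gene, with the matched letters in capitals. For Ifit1 the letters lie on the other strand and therefore appear reversed and complemented. They are at chr5:90891095-90891244 (plus strand) for Cxcl1, chr5:90903749-90903898 (plus strand) for Cxcl2, chr19:34640739-34640888 (plus strand) for Ifit1 and chr16:23890845-23890994 (minus strand) for Sst, the last of which was high in neurons.
Cxcl1: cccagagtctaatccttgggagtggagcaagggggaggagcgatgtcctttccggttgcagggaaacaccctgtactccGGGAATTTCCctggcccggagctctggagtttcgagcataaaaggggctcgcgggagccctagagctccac
Cxcl2: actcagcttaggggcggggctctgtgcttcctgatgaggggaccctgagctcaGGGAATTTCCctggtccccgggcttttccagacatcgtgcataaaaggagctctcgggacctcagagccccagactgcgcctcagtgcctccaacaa
Ifit1: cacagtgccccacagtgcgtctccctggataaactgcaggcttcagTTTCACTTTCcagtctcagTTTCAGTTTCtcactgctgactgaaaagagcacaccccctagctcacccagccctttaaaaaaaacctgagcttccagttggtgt
Sst: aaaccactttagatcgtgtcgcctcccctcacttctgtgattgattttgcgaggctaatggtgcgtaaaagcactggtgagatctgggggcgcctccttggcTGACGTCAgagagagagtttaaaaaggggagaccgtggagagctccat

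The matched letters begin 71 bases before the start in Cxcl1 and 97 in Cxcl2, neighbours on the same chromosome that carry the same 10 letters. In Ifit1 the 2 matches begin 104 and 85 bases before the start, and in Sst the match begins 48 bases before it.

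**Figure D4:**
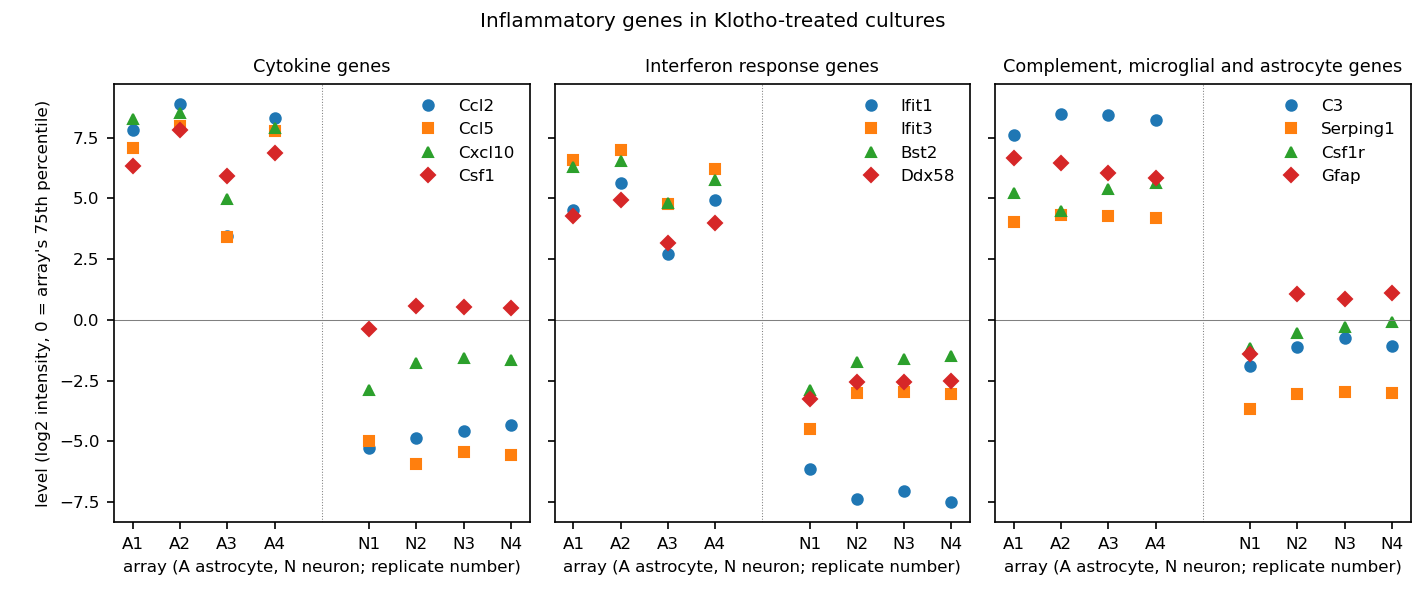
Level of 12 genes of the inflammatory, complement and marker lists on each Klotho array, in log2 units relative to the 75th percentile of the array, astrocyte arrays left and neuron arrays right. Ccl2 and Ccl5 drop to 3.46 and 3.43 on astrocyte replicate 3, whereas C3 and Serping1 stay within 7.62 to 8.45 and 4.02 to 4.31 over the astrocyte arrays.

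Genes of complement and antigen presentation were also high, without that spread. Of 23 tested, 21 were called higher, each by more than 2-fold, and 0 lower, with a median of 5.01. C3, the central complement component, was at 7.62, 8.45, 8.43 and 8.24 in astrocytes, against -1.88, -1.11, -0.76 and -1.06 in neurons, a log2 difference of 9.39 ± 0.29 (SE, n = 4 each; limma adjusted p = 9.68e-09). Serping1, the C1 inhibitor, was at 4.02 to 4.31 in astrocytes and at -3.69 to -2.99 in neurons, 167-fold higher. The class I histocompatibility gene H2-K1 rose by 5.81, and C5ar1, the receptor of complement fragment C5a, was at least 51.1-fold higher (limma adjusted p = 1.8e-08).

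Markers of microglia, the resident phagocytes of the brain that also make cytokines, were higher in astrocyte cultures too. Of 20 microglia markers, all tested, 19 were called higher in astrocytes and 0 lower, with a median of 5.53. Only 10 of the 20 were above background on all 4 neuron arrays, and 9 of these were called higher. The remaining markers entered the test through the astrocyte arrays alone, so their direction was largely set by the filter. Averaged over the list, the level was 2.03 to 2.59 on the astrocyte arrays, against -3.67 to -2.03 on the neuron arrays. Csf1r, the receptor that keeps microglia alive, was at 5.21, 4.49, 5.37 and 5.63 in astrocytes, against -1.17, -0.56, -0.27 and -0.09 in neurons. That is a log2 difference of 5.70, and its other probes gave 5.53 and 0.31. Aif1, which encodes the marker IBA1, rose by 4.03 and the complement subunit C1qb by 4.93. P2ry12, a receptor of resting microglia, was at least 11.9-fold higher (limma adjusted p = 4.39e-07). Itgam did not pass the test by its brightest probe (0.17), while another of its probes gave 2.59. No marker was below background on all astrocyte arrays, and P2ry12 and the transcription factor Spi1, 2 of 20, were so on all neuron arrays. On astrocyte replicate 3, the lowest for NF-kappaB genes, the microglia markers averaged 2.47, within the range of the other astrocyte arrays. On astrocyte replicate 2, the highest for NF-kappaB genes, they averaged 2.03, the lowest of the astrocyte arrays. The part of microglia in the inflammatory and complement differences was not tested.

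Secreted neuronal peptides were low in astrocytes, and some trophic factors were high. Of 25 neurotrophin and neuropeptide genes, 14 were called lower and 5 higher. The peptide Cck was at -4.33, -4.05, -6.60 and -2.93 in astrocytes, where 3 of 4 arrays were above background, against 6.94, 6.47, 6.50 and 6.43 in neurons, a log2 difference of -11.06 ± 0.63 (SE, n = 4 each; limma adjusted p = 3.62e-07). The granin Chgb and the convertase Pcsk2 fell by 3.57 and 4.67. Cntf, a trophic factor of glia, rose by 5.48 ± 0.31 (SE, n = 4 each; limma adjusted p = 3.31e-07). The neurotrophin Bdnf did not pass the test.

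Of 20 tested immediate early genes 6 were called higher and 6 lower, shares near those over everything tested (27.5% and 35.5%). Fos and Atf3, transcription factors induced by many stimuli, rose by 3.18 and 4.47, whereas Nr4a2 fell by 3.92 and Nptx2, a synaptic pentraxin induced by activity, was at least 14.2-fold lower (limma adjusted p = 3.88e-08). Atf3 was at 2.20, 3.81, -0.16 and 3.05 in astrocytes, against -3.15, -1.98, -1.89 and -1.97 in neurons, and so shared the low value of astrocyte replicate 3. Without that array 9 of these genes were called higher, and 11 with only astrocyte replicates 2 and 4. Of 29 cell cycle genes 13 were called higher and 3 lower, beside the same 27.5% and 35.5% over everything tested. The test for more than 2-fold was passed by 2 of them, with the kinase Cdk1 higher by 2.38 and the cyclin Ccnd1 by 1.91. The replication protein Pcna did not pass the test.

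Markers of other cell types were present at differing levels. Of 14 tested oligodendrocyte lineage markers, 11 were called lower and 1 higher in astrocytes: the precursor receptor Pdgfra was at -1.67, -2.66, -1.07 and -2.18 in astrocytes and at 2.30, 2.34, 2.47 and 2.51 in neurons, and Olig2, a lineage factor, fell by 2.29. Of 12 tested ependymal and choroid plexus markers, 10 were called higher and 2 lower. Foxj1, the factor of motile cilia, was at 5.77, 5.30, 5.36 and 4.49 in astrocytes, against -0.79, 0.00, -0.02 and -0.01 in neurons, and the cilia genes Ccdc153, Rsph1 and Cfap126 rose by 5.42, 4.30 and 5.46. Ttr, the transport protein of choroid plexus epithelium, was at -3.91, -4.67, -2.67 and -5.67 in astrocytes and at -4.66, 1.05, -0.18 and 0.74 in neurons, so the groups overlapped through neuron replicate 1. Its call (limma adjusted p = 0.0262) was lost without astrocyte replicate 2 or 4 or without neuron replicate 2, 3 or 4. Of 13 tested meningeal fibroblast markers 7 were called higher and 4 lower, with a median of 1.31. Ogn and Col1a2, matrix genes of fibroblasts, were higher by 7.67 and 7.04. All 4 lower ones, among them Pdgfra and Dcn, were lower by more than 2-fold. The median was 0.41 with normexp background correction and 0.50 with the mean over probes. Of 15 endothelial and mural markers 8 were tested, with 5 called higher and 1 lower, while Cldn5, Tie1 and Emcn were above background on 0 of 8 arrays. The part of such cells in the matrix and TGF-beta differences was not tested.

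The same comparison between the vehicle cultures used none of these 8 arrays, although the neurons of both treatments shared a slide. The treatment of vehicle astrocyte replicates 2 and 4 is also in conflict, since the value table assigns their data to Klotho cultures. Of 30539 genes or probes tested, the vehicle comparison called 6563 (21.5%) higher and 9142 (29.9%) lower, 51.4% in all. Of 27645 tested under both treatments, 13251 were called in the same direction, which is 76.3% of the calls with Klotho and 91.7% of the calls with vehicle, and 1 was called in opposite directions. The microglia list had a median of 5.53 with Klotho and 5.86 with vehicle, and the pan-neuronal list -5.43 with Klotho and -5.79 with vehicle. NF-kappaB genes gave 8.16 with Klotho (29 tested) and 4.80 with vehicle (25 tested), and interferon genes 7.65 with Klotho (30 tested) and 6.28 with vehicle (29 tested), so these medians do not rest on the same members.

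Whether the difference between cell types itself differed between Klotho and vehicle arrays was tested as an interaction over all 16 arrays. Vehicle and Klotho astrocytes lay on different slides, and vehicle and Klotho neurons in different rows of their slide. An effect of Klotho on this difference therefore cannot be told apart from slide and array row. Of 30693 genes or probes 23 were called (0.0749%), 21 with a higher (0.0684%) and 2 with a lower (0.00652%) difference between astrocytes and neurons under Klotho. A gene symbol was held by 20 of the calls, 19 of them with a higher difference. The 10 of these with the smallest p are known from the liver, such as Alb, serum albumin, and Ahsg, fetuin A (limma adjusted p = 2.32e-05 for both). Neither was above background on any of the 8 Klotho arrays or on the vehicle astrocytes, so the change has no measured size. Both were above background on all 4 vehicle neuron arrays, with Alb at 0.95, -0.99, 0.64 and 0.13. With vehicle Alb was at least 87.2-fold lower and Ahsg at least 42.9-fold lower in astrocytes, with limma adjusted p = 6.93e-07 and 1.24e-06. The members of the Mup and Serpina1 families among these genes are near-identical copies that their probes may not tell apart. The other calls with a symbol and a higher difference were Adh1, Ambp, Bhmt, Fabp1, Hamp, Itih4, Mug2, Mup19 and Mup20. Each of them was also above background on all 4 vehicle neuron arrays. The olfactory receptor Olfr103 was the named gene with a lower difference (-1.82; limma adjusted p = 0.0377) and was above background on 0 of 4 astrocyte and 2 of 4 neuron arrays with Klotho. Its call was lost without most single arrays, with limma adjusted p up to 0.137.

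No gene of the NF-kappaB or interferon lists was called in the interaction, 0 of 29 and 0 of 30. The median change of the astrocyte-minus-neuron difference with Klotho was 3.33 and 1.02 log2 units over these lists, and was 0.39 for complement and -0.30 for microglia markers. For Ccl2 the change was 4.52 (limma adjusted p = 0.833) and for Cxcl1 it was 7.94 (limma adjusted p = 0.162). The count of calls depended on astrocyte replicate 3. Without it 135 genes or probes were called with a higher and 15 with a lower difference. Among them were 18 of 31 tested NF-kappaB genes, including Ccl2, Ccl5, Cxcl1, Cxcl2, Il6 and Il1b, and 5 of 30 interferon genes. Replicate 3 was the lowest astrocyte array for both lists, so leaving it out raises their difference and narrows their spread by construction. These added calls are therefore no test of Klotho. With the deposited value table, which changes both the assignment and the scale of the values, 0 of 28 NF-kappaB genes were called. Replicate 3 is also an array whose treatment the 2 sources give differently, and which of them is right was not tested.

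**Figure D5:**
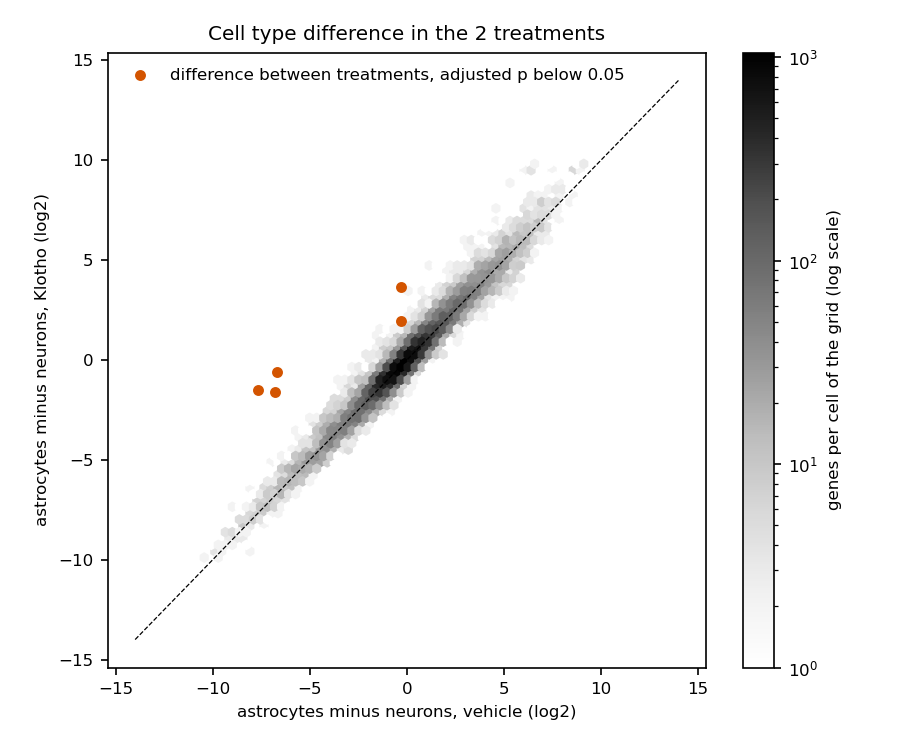
Log2 difference, astrocytes minus neurons, with Klotho (vertical axis) against the same difference with vehicle (horizontal axis), as a grid shaded by the number of genes or probes per cell on a log scale, for 27645 tested under both treatments. The dashed line marks equal differences, and the 5 interaction calls among these genes are marked as points.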

How the data were processed

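RNA of 16 cultures (200 ng each, labelled with Cy3) was hybridised to Agilent 1-colour arrays, and the 8 arrays of Klotho-treated cultures are the subject here. Per the file headers, the authors extracted spots with Agilent Feature Extraction 12.0.3.1 on array design 028005, and the deposited processed intensity has had background subtracted and spatial trends removed array by array, with no scaling across arrays. The deposited flags for spots well above background, for outliers and for saturation were used as given. A second table deposited by the authors holds score values that, judged from the numbers, are z-scores within each array. How they were made is not given in the sources used here. Matched against the scanner files, 10 of its 16 columns held the array of their own sample and 6 held another astrocyte array, so the scanner files were used throughout and this table served as an alternative.

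From each log2 intensity the 75th percentile of its array was subtracted. Control and outlier spots were left out, spots of a probe were averaged, and 28331 of 55681 probes (50.9%) were named through RefSeq accessions of GRCm38.p6, the others being kept as probes. A gene was represented by its brightest probe and tested where either group had all 4 arrays well above background. Tests used limma 3.58.1 in R 4.3.3 (lmFit, eBayes, and treat for more than 2-fold) with Benjamini-Hochberg adjustment over everything tested at 0.05, on the 8 arrays, and the interaction on all 16 arrays. The fit was tested on simulated data. Promoter motifs were searched as letters.

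Samples were grouped by their titles. The 40 gene lists (936 entries, 932 on the array, where they are 902 different genes), the 30 gene pairs and the comparison itself were chosen with earlier results of these data known. Named genes were the Klotho and fibroblast growth factor receptors, the 10 largest differences per direction above background on all 8 arrays, the 5 largest bounds per direction, up to 6 called members per list by p with up to 2 of the opposite direction, members named as not called, all members of pairs, interaction calls, and the 10 largest SDs per group. Some genes that this rule names are not reported here. Other list members were named for their known role after their values were seen. Alternatives were background correction (normexp with an offset of 50, on median in place of the planned mean spot signals, which the files used here do not hold), median centring, quantile normalization, the mean over probes, the filter on dim probes, the spread model, 16 arrays in one fit, array position, the replicate block, the deposited value table and leaving out each array. Precision is limited by the number of arrays; the median SE of a log2 difference was 0.26.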

Additional observations from a re-analysis of the deposited data

Results flagged for a closer look

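Neuron replicate 1 stood apart most often. In each group of 4 arrays, the array farthest from the others was compared with Dixon's 95% critical value for 4 samples, for the 40 gene lists tested and the 233 genes named here, and 100 of 546 such groups passed it. Chance passes about 1 in 20. Neuron replicate 1 was the array in 84 of them, 17 lists and 67 genes. For 64 of these 67 genes, vehicle neuron replicate 1 also lay at the same end of its own group, so that the arrays numbered 1 of both neuron groups shared the deviation. Gfap was at -1.39 on Klotho neuron replicate 1 and at -1.30 on vehicle neuron replicate 1, and Mvd at 3.67 and 3.76. Both arrays lie in the first column of the same slide. Whether this reflects the culture or the slide position was not tested.

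On this array the synaptic and channel lists were high. Presynaptic genes averaged 3.89 (others 3.21 to 3.25), glutamate receptor and postsynaptic genes 1.88 (others 1.25 to 1.33), GABA signalling genes 3.37 (others 2.62 to 2.71) and voltage-gated channel genes 2.18 (others 1.43 to 1.50). Cholesterol synthesis genes were high as well, at 3.90 (others 2.46 to 2.56). Of the genes named here, the neuronal ones that were high on it were Camkv at 6.98, Cck at 6.94, Chgb at 6.43, Cplx1 at 4.95, Gad2 at 3.60, Gria3 at 1.61, Mast1 at 5.04, Nptx2 at -1.48, Pcsk2 at 5.39, Rbfox3 at 4.93, Slc1a1 at 4.05, Slc2a3 at 4.34, Slc32a1 at 6.71, Syt1 at 6.84, Vgf at 5.45 and Bdnf at 0.0607. The sterol genes were Dhcr7 at 3.05, Hmgcs1 at 7.50 and Mvd at 3.67. Klb at -5.87, Spry1 at 0.56, Igfbp2 at 4.40, Cpt1c at 2.90 and Nes at 3.13 were also the highest of their group.

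Glial and supporting lists were low on the same array. Astrocyte identity genes averaged 2.27 (others 2.74 to 2.77), synaptogenic and phagocytic genes 0.16 (others 0.45 to 0.49), progenitor and Notch genes 0.35 (others 0.92 to 0.99) and ependymal and choroid plexus markers -3.19 (others -1.94 to -1.84). In metabolism, fatty acid oxidation genes averaged 2.00 (others 2.45 to 2.48), lipid transport genes 0.85 (others 1.00 to 1.02) and antioxidant genes 2.62 (others 3.01 to 3.03). Complement genes averaged -2.64 (others -2.09 to -1.98), fibroblast growth factor genes -0.0584 (others 0.23 to 0.28) and immediate early genes -0.0782 (others 0.12 to 0.16). Ribosomal protein genes averaged 6.71 (others 7.18 to 7.24) and, unlike the other neuronal lists, interneuron genes were low, at 1.17 (others 1.61 to 1.64).

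Single genes that were low on neuron replicate 1 fell into the same classes. Among genes of glia were Gfap at -1.39, Aqp4 at 1.25, Slc1a3 at 3.87, Glul at 3.93, Aldoc at 5.87, Apoe at 7.61, Cst3 at 6.77, Ntsr2 at 1.82, Phgdh at 3.65 and Vcan at 1.93. Genes of growth factor and Notch signalling were Fgfr1 at 3.99, Fgfr2 at -1.19, Spred1 at 1.38, Etv1 at 2.72, Igf1r at 2.47 and Hes1 at -3.27. Lipid, glycogen and glucose genes were Abca1 at 1.67, Plin2 at -1.67, Plin3 at -2.83, Cpt1a at 0.80, Cpt2 at -0.49, Pdk4 at -3.21, Angptl4 at -2.04, Txnip at 0.22, Phkg1 at -2.77 and Slc2a4 at -1.84. Antioxidant genes were Nfe2l2 at 0.55, Prdx6 at 4.66 and Gstm5 at 4.06. Inflammatory, TGF-beta and immediate early genes were Csf1 at -0.36, Cxcl10 at -2.87, Ddx58 at -3.25, Ifit3 at -4.51, Serping1 at -3.69, Tgfbr2 at -2.69, Atf3 at -3.15 and Fos at -2.13. The others were Acta2 at -4.36, Ahnak at -4.26, Cplx2 at 6.40, Foxj1 at -0.79, Cfap126 at -2.13 and Ogn at -4.35.

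Other arrays stood apart rarely. Astrocyte replicate 3 was lowest for extracellular matrix genes, at 1.39 (others 1.82 to 1.91), and for neurotrophin and neuropeptide genes, at -0.56 (others 0.21 to 0.30), and highest for Cpne6 at -5.67, a gene below background there. Astrocyte replicate 4 was highest for synaptogenic genes, at 2.67 (others 2.46 to 2.49), and astrocyte replicate 1 for Mapt at 2.74. Astrocyte replicate 2 was highest for Smtnl2 at 5.36 (others -3.20 to -2.16) and lowest for Chgb at 1.77, H6pd at 0.88, Hes1 at -3.49 and Slc2a3 at 0.75. Neuron replicate 3 was highest for P2ry12 at -6.46 and Serpina1e at -4.33, and neuron replicate 4 highest for Mup1 at -6.51, Serpina1a at -4.71 and Fgg at -5.68 and lowest for Csf2 at -7.75, genes near or below background in neurons.

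The cell type difference itself differed between Klotho and vehicle for 11 of the genes named here in the interaction test. Its fitted change with Klotho, in log2 units, was 6.77 for Alb, 6.40 for Ahsg and 4.44 for the fibrinogen chain Fgg. It was 6.16, 6.09, 5.16 and 4.40 for the serpins Serpina1e, Serpina1a, Serpina1c and Serpina3k, and 6.32, 5.45 and 5.40 for the urinary proteins Mup18, Mup1 and Mup17. For Olfr103 it was -1.82. All 10 liver genes were above background on all 4 vehicle neuron arrays. For 7 of them no array of the other groups was above background, so that their fitted changes rest on background signal and are no measured sizes. The other 3, Serpina1a, Serpina1c and Serpina1e, were above background on all 4 Klotho neuron arrays but not on all arrays of either astrocyte group, so their fitted changes are not exact sizes either.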

How the results depend on the processing

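The comparison of astrocytes and neurons kept its counts within 1.5 times the reported ones under nearly every alternative. Leaving out single arrays gave 6866 to 8967 genes or probes higher and 8733 to 10933 lower, with 3559 to 4398 higher and 3311 to 3980 lower by more than 2-fold. The vehicle comparison gave 5721 to 6728 higher and 7694 to 9030 lower, and the pairs with a lower neuronal and a higher other form numbered 8 to 11. Restricted to the 22767 genes or probes above background on all arrays, which leaves out those dim in 1 cell type, 2178 were higher and 2253 lower by more than 2-fold. These are 4431 calls, against 7506 of the 27799 tested otherwise. Of the lists, 12 NF-kappaB genes, 18 interferon genes and 9 microglia markers were then called higher. Called lower were 10 projection neuron factors, 9 interneuron genes and 14 voltage-gated channel genes. The interaction depended most on the processing. Against 21 higher and 2 lower calls, it gave 9 and 0 with normexp correction, 45 and 0 with the deposited value table and 0 and 0 above background on all arrays. The lower count was 1 with median centring, with quantile normalization, without a filter and with the replicate block, and 0 with the trended robust spread. Single arrays left out gave 16 to 135 higher and 0 to 15 lower calls, with 135 higher without Klotho astrocyte replicate 3 and 35 without vehicle neuron replicate 2. The cause of these changes was not tested. Of 351 named genes tested, 304 kept their direction and side of the threshold under every alternative. Elavl1 reversed to -0.38 with the mean over probes, and the interaction of Olfr103 reversed to 0.06 with the value table. The z-scores of that table allow no 2-fold test. Replicate numbers did not pair astrocyte with neuron arrays under Klotho (correlations of deviations between -0.10 and 0.01), which says nothing of neuron arrays across treatments, whose replicates 1 deviated together. With the numbers as a replicate block 16195 were called and 7119 by more than 2-fold. With only astrocyte replicates 2 and 4, whose treatment both sources give alike, chosen after seeing the data, 19549 were called and 8456 by more than 2-fold. Counts for oxidative phosphorylation (33 lower, between 11 and 55), ribosomal (28 lower, between 16 and 43) and glycolysis genes (8 lower, between 1 and 5 where it moved) depended on scaling and arrays. Of 902 list genes on the array, 266 have several measured probes. Differences lay more than 2 log2 units apart for 50, and 2, Ncam1 and Ntrk2, had probes that differed by more than 2-fold in opposite directions. Signal over background limits what can be said of genes dim in both groups, Kl and Klb among them.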
